A study of Mus musculus with 18 samples.

Results

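The genes described here are the class II odorant receptor (OR) genes of 2 clusters on mouse chromosome 9. They were taken as every row of the expression table whose symbol runs from Olfr828 to Olfr979 and has no pseudogene suffix. The rule found 105 genes among 1097 OR genes in the table, 9.57% of them, and among 23359 gene symbols in all. Of the 105 receptors, 103 were placed by the GENCODE M21 annotation of GRCm38, all of them on chromosome 9. Olfr899 and Olfr900 had no entry in that annotation and are given by symbol only. The annotation called 100 of the placed genes protein coding and 3 polymorphic pseudogenes, and it put 69 on the plus strand and 34 on the minus strand.

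Odorant receptors are G protein-coupled receptors of olfactory sensory neurons (OSNs) in the main olfactory epithelium. Their signal passes through the G protein alpha subunit encoded by Gnal to the adenylyl cyclase Adcy3 and the cyclic nucleotide-gated channel subunit Cnga2. Class I receptors resemble those of fish and lie in a single cluster on chromosome 7, whereas class II receptors make up most of the family and sit in clusters on many chromosomes. A mature OSN typically transcribes a single receptor gene from a single allele. A level measured in a pool of cells thus depends on how many of its neurons chose that gene and on the RNA of each. Trace amine-associated receptors (TAARs) are a small separate family of olfactory receptors chosen by their own neurons, the TAAR OSNs.

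RNA-seq libraries were made from cells sorted from the mouse main olfactory epithelium by the fluorescence of a Cre-dependent reporter. In the Taar5 line (genotype TAAR5-Cre&L10-GFP, postnatal day 11 to 14 in the labels), 7 libraries came from GFP-positive cells (Taar5+) and 9 from GFP-negative cells (control). In the Taar6 line (TAAR6-Cre&ZsGreen, postnatal day 16 to 17), 1 library came from ZsGreen-positive cells (Taar6+) and 1 from ZsGreen-negative cells. The labels give the strain as C57BL/6 for all 18 libraries, whereas the study's reporting summary gives a mixed background and an older age in weeks. Control cells carried the same Cre and reporter alleles as the positive cells, and the submitters describe them as mostly, but not only, OR OSNs. Cre was made from the Taar5 or Taar6 transcript itself, and the reporter stays on once Cre has acted, so it marks cells that have transcribed that gene at some time. The labels do not say whether libraries of a group came from separate animals, so p-values measure only the spread between these libraries, which may be technical. Line, reporter and age cannot be told apart between the lines, so only the 16 Taar5-line libraries were tested.

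Mature OSN markers (Omp, Cnga2, Gng13 and Adcy3) were present in every library, with summed levels from 8595 to 34378 TPM (length-corrected transcript shares scaled to the same total in each library) in the 16 libraries of the Taar5 line. Of 6 Taar genes used as TAAR OSN markers, 5 were called higher in Taar5+ cells (limma adjusted p under 0.05), against 0.144% of all genes. The number called lower was 0, against 0.024%. Taar6, the gene not called, had a log2 fold change of 2.28 (limma adjusted p = 0.487). The sort itself selected cells that had transcribed Taar5, which is on this list. Several libraries stood apart from the rest. Control replicate 2 had 5939 gene rows above 0 and 39 OR genes above 0, and control replicates 7 and 8 had 333 and 302 OR genes above 0, against 467 to 990 in the other controls. Taar5+ replicate 5 had 1003 OR genes above 0, against 21 to 405 in the other Taar5+ libraries. It also had the highest sustentacular marker sum (6898 TPM against 40.9 to 1661 in the other Taar5+ libraries), the highest horizontal basal cell marker sum (181 TPM against 0 to 17.5) and the lowest TAAR marker sum of the Taar5+ group (1092 TPM against 3041 to 5652). Control replicate 2 had a sustentacular marker sum of 6614 TPM, against 27.6 to 669 in the other controls. In control replicate 2, 13 Taar values were copies of those of replicate 1 and were set aside, while 0 values of the 105 receptors were copied.

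The receptors have short coding sequences of a shared plan. The coding sequence, found for 102 of them in GENCODE M21, ran from 801 to 993 bases with a median of 936. A stretch that encodes the Asp-Arg-Tyr triplet, a hallmark of this receptor class that contacts the G protein, was found in 75 of the 102 by an in-frame search for its codons. It is shown for 5 of the receptors with the highest control levels, 30 bases each, with the codons of the triplet in capitals. The stretch covers coding bases 355 to 384 in Olfr969, Olfr972 and Olfr847, 364 to 393 in Olfr943 and 373 to 402 in Olfr923, counted from the first base of the start codon. The Olfr969, Olfr943, Olfr972 and Olfr923 genes lie on the plus strand and the Olfr847 gene on the minus strand. The sequences are read 5′ to 3′ along the coding strand.
Olfr969: gcatatGATCGCTATgttgccatcggtaac
Olfr943: gcatatGATCGCTATgttgccatctgtaac
Olfr972: gcatatGACCGCTATgttgccatttgtaag
Olfr847: gcctatGACCGCTATgcagctatttgtcat
Olfr923: gcatatGACCGTTATgttgctatttgcaag

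Taken whole, the coding sequences diverged widely. Over the 5151 pairs of the 102 receptors, the median identity across a global alignment was 57.8% and the lowest 46.8%, whereas 43 of the 102 had another member of the set over 90% identical. The closest pair was Olfr952 (chr9:39426093-39427148) and Olfr955 (chr9:39465801-39471944), both on the minus strand, with 18 differences in 942 aligned bases (98.1% identity). The 60-base windows with the most differences are shown for this pair and for Olfr910 and Olfr912 (96.0% identity, 37 differences in 930 bases, both plus strand), since the levels of both pairs are compared further on. Capitals mark the bases that differ. The windows are coding bases 82 to 141 for the first pair and 628 to 687 for the second.
Olfr952: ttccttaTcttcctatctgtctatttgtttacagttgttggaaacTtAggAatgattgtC
Olfr955: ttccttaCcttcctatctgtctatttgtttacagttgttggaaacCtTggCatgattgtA
Olfr910: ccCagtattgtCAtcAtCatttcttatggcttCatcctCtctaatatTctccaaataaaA
Olfr912: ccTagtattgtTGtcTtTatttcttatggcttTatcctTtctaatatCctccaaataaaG

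Stretches this alike bear on the measurement. The share of a gene's 50-base words that also occur in transcripts of another gene was 46.2% for Olfr952, all shared with Olfr955, and 30.4% for Olfr955. It was 27.5% for Olfr871, whose closest partner is Olfr870. In all, 18 of 103 receptors shared over 10% of their words and 16 shared 0. How reads that map to several genes were divided is not stated, so the levels of the receptors with large shares are uncertain.

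Receptor transcripts of these clusters were abundant in control libraries and scarce in nearly all Taar5+ libraries. Summed over the 105 receptors, controls 1 to 9 held 1162, 394, 1021, 1424, 1148, 900.1, 628, 312 and 1068 TPM. Taar5+ replicates 1 to 7 held 98.5, 0, 4.32, 28.8, 342, 61.3 and 35.4 TPM. Thus 6 of the 7 Taar5+ libraries lay below every control, and the groups overlapped only through Taar5+ replicate 5, which lay above control replicate 8. The means were 895 ± 375 TPM (SD, n = 9) in controls and 81.5 ± 120 TPM (SD, n = 7) in Taar5+ cells, which is 9.10% of the control mean. The difference in mean log2(summed TPM + 1), Taar5+ minus control, was -4.87. These libraries are pools of cells, in which fewer neurons of a receptor and less RNA per neuron cannot be told apart.

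Taar5+ replicate 5 alone held 59.98% of the TPM that these receptors reached over the 7 Taar5+ libraries. Its sum was 38.2% of the control mean. The other 6 Taar5+ libraries ran from 0 to 98.5 TPM (median 32.1), with a mean of 38.0 ± 37.1 TPM (SD, n = 6), which is 4.25% of the control mean. The sustentacular and basal cell markers given above were highest in the same library, and their part in its receptor level was not tested.

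**Figure D1:**
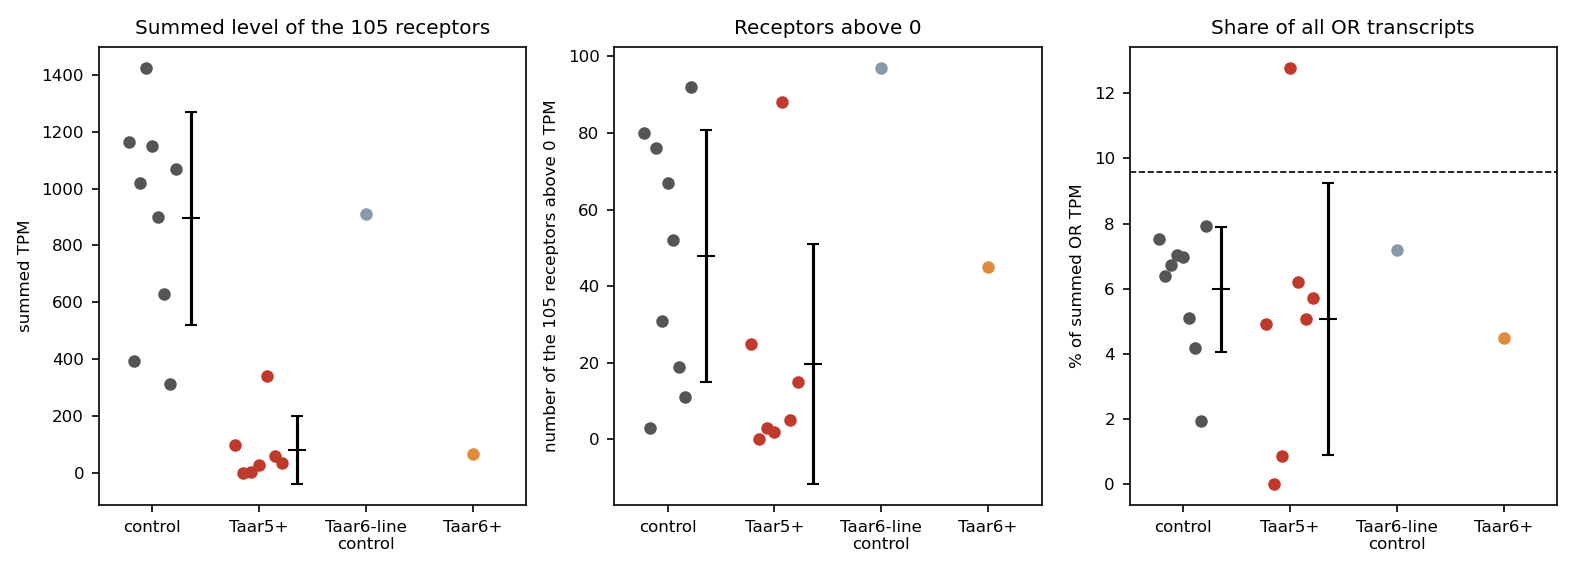
Each point is a library of the group named on the x axis, and the black bars are the mean ± SD of control (n = 9) and Taar5+ (n = 7) libraries. The panels show the summed TPM of the 105 receptors, the number of them above 0 TPM and their percent of the summed TPM of all OR genes, where the dashed line is their 9.57% share of OR genes. Control sums span 312 to 1424 TPM and Taar5+ sums 0 to 342 TPM, while the shares of the 2 groups overlap and all control shares lie below the dashed line.

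The rest of the OR family was lower in Taar5+ cells to a like degree. The 105 receptors made up 1.95 to 7.92% of all OR TPM in controls (median 6.72%) and 0 to 12.8% in Taar5+ libraries (median 5.06%). The groups overlapped over nearly the whole range. The highest value, 12.8%, was that of Taar5+ replicate 4, in which the whole OR family summed to 225 TPM and Olfr923 alone to 28.1 TPM. The mean level per gene was 8.53 TPM in controls and 0.776 TPM in Taar5+ cells for these receptors, and 14.3 and 1.45 TPM for the other OR genes. No test was made of the difference between the sets.

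Within control cells the receptors of these clusters were less abundant than their number would give. Their share of OR TPM lay below their 9.57% share of OR genes in all 9 controls of the Taar5 line, and it was 7.18% in the control of the Taar6 line. The mean TPM of the 105 receptors was 0.188 to 0.813 times that of the other OR genes of the same library, with a median ratio of 0.680 over the 9 controls. Control means per gene were 13.3 TPM for the OR genes of chromosome 2, 16.8 TPM for those of chromosome 7, 11.8 TPM for those of chromosome 11 and 12.1 TPM for the 27 other OR genes of chromosome 9. The receptors made up 3.64 to 9.29% of the OR genes above 0 in controls. No test was made of these differences between sets of genes.

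How many of the receptors were seen at all varied with the library. The number above 0 was 80, 3, 76, 31, 67, 52, 19, 11 and 92 in control replicates 1 to 9 and 25, 0, 3, 2, 88, 5 and 15 in Taar5+ replicates 1 to 7. The groups overlapped, since 3 controls had fewer than Taar5+ replicate 1 and Taar5+ replicate 5 exceeded all controls but replicate 9. A receptor listed at 0 may be absent, below detection or a failed estimate, because the table keeps no sequencing depth. Olfr891 was listed at 0 in all 18 libraries, and 0 receptors were above 0 in more than 7 of the 9 controls of the Taar5 line. Of the 105, 21 were above 0 in 6 controls, 9 in 7 controls and 9 in a single control. In Taar5+ cells 11 were above 0 in no library, and 51 were above 0 in replicate 5 only.

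**Figure D2:**
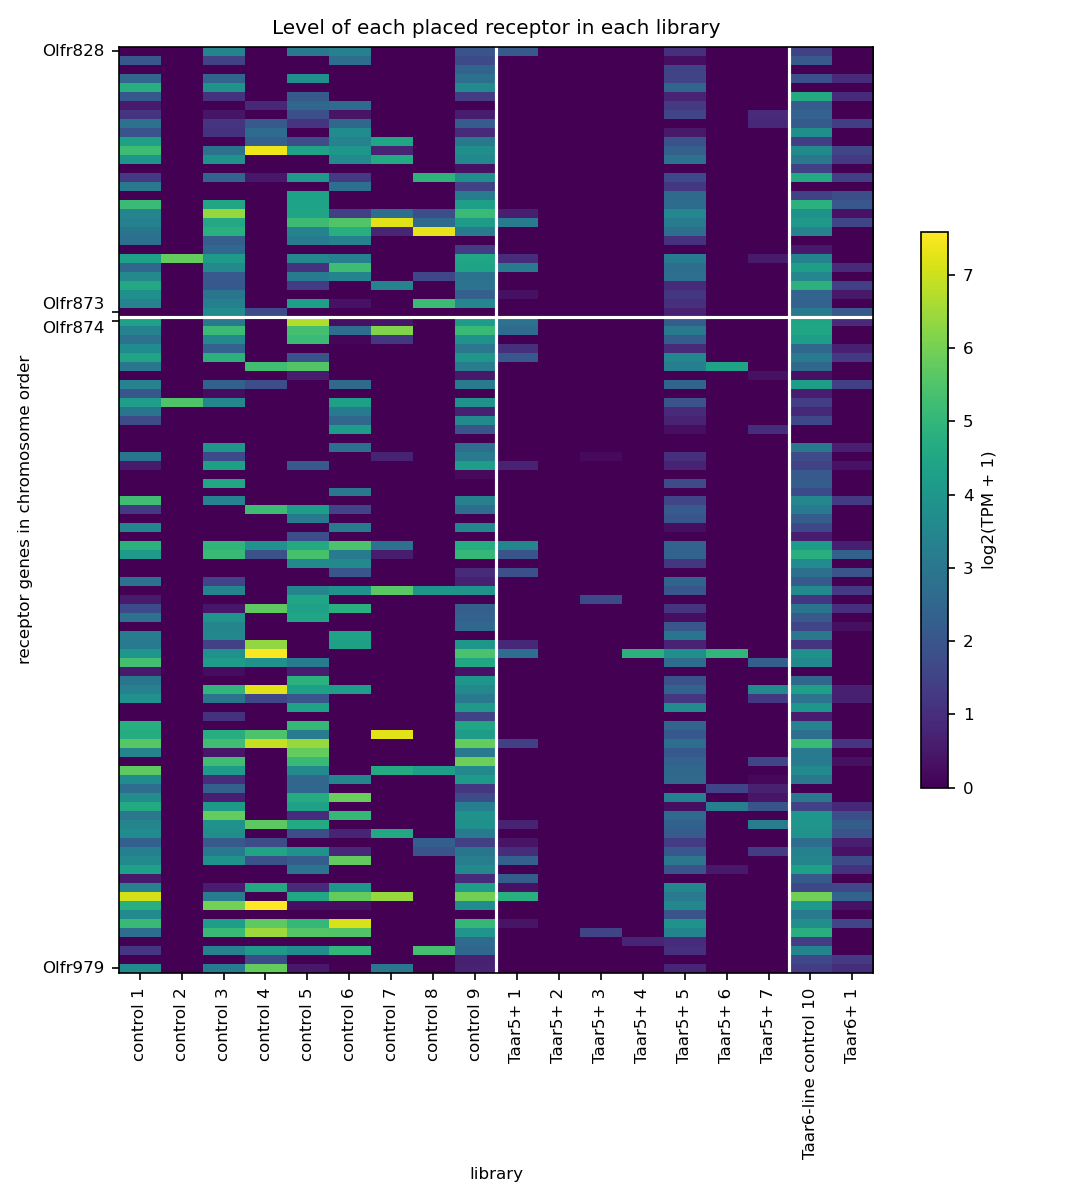
Rows are the 103 placed receptors in chromosome order, columns are the 18 libraries, and the colour is log2(TPM + 1). White lines separate the clusters and the groups. Control columns hold scattered bright cells at differing receptors. Among Taar5+ columns, replicate 5 is dim across most rows (27 receptors above 0 in the proximal and 59 in the distal cluster), and the others hold few cells above 0, the most in replicate 1, where Olfr969 is the brightest (27.3 TPM).

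In controls a few receptors carried much of the sum, and they differed between libraries. Among the receptors above 0 in any control, the highest of the 9 control values held a median of 51.2% of the receptor's summed control TPM (range 24.9 to 100%, 104 receptors), and it held more than 50% for 56 of them. Olfr899 made up 74.8% of the sum in control replicate 2 and Olfr860 50.9% in control replicate 8, whereas the leading receptor of control replicate 9, Olfr969, made up 5.82%. The effective number of receptors (the inverse of the summed squared shares) was 1.69 in control replicate 2, 3.30 in replicate 8, 6.37 in replicate 7 and 12.1 to 44.0 in the other controls. In Taar5+ replicate 5 it was 52.2, higher than in any control of the line, and no receptor there exceeded 13.6 TPM.

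The order of the receptors was partly shared between controls. Over the 105 receptors, Spearman's rho was 0.136 to 0.598 (median 0.440) for the 15 pairs of the 6 Taar5-line and Taar6-line control libraries with more than 50 receptors above 0. It was -0.109 to 0.352 for the pairs with at least 1 of the sparser controls. The control mean correlated with the level in the Taar6-line control (rho 0.636) and with the level in Taar5+ replicate 5 (rho 0.720). These correlations are across receptors, which share library, depth and sequence, and are given as a description.

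Olfr969 (chr9:39790945-39796635, plus strand) had the highest control mean, 40.5 ± 47.1 TPM (SD, n = 9). Its control values ran from 0 to 135 TPM (median 21.7), and it was at 0 in replicates 2, 4 and 8. In Taar5+ cells it was above 0 in replicate 1 (27.3 TPM) and replicate 5 (7.87 TPM) only, so the groups overlapped. The log2 fold change was -2.52 with a standard error of 1.18 (limma adjusted p = 0.685).

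Olfr972 and Olfr970 lie beside Olfr969. Olfr972 (chr9:39866422-39874651, plus strand) ran from 0 to 138 TPM in controls (median 32.0) and was at 0.333 TPM in Taar5+ replicate 1, 13.6 TPM in replicate 5 and 0 in the other Taar5+ libraries. Its log2 fold change was -2.98 ± 1.06 (SE, limma adjusted p = 0.401). Olfr970 (chr9:39808860-39820997, plus strand) was carried by control replicate 4 (191 TPM) and replicate 3 (63.1 TPM), and its control median was 0.247 TPM. It was at 10.7 TPM in Taar5+ replicate 5 and 0 in the other Taar5+ libraries. It did not pass the filter for testing.

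Olfr943 (chr9:39166304-39192350, plus strand) ran from 0 to 120 TPM in controls, and its median of 37.5 TPM was the highest control median of the 105 receptors. It was at 0 in control replicates 2, 6, 7 and 8, and at 1.69 and 5.66 TPM in Taar5+ replicates 1 and 5. Olfr938 (chr9:39077698-39078887, minus strand) ran from 0 to 149 TPM in controls (median 17.4) and was above 0 in Taar5+ replicate 5 alone, at 3.23 TPM. The controls at 0 kept both receptors from separating the groups. The log2 fold changes were -2.74 ± 1.14 (SE) for Olfr943 and -2.98 ± 0.96 (SE) for Olfr938 (limma adjusted p = 0.575 and 0.312).

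In the cluster nearer the centromere the leading receptors were Olfr859, Olfr847 and Olfr860. Olfr859 (chr9:19804906-19817626, plus strand) ran from 0 to 152 TPM in controls (median 17.4), and was at 7.70 and 7.61 TPM in Taar5+ replicates 1 and 5. Olfr847 (chr9:19373668-19378669, minus strand) ran from 0 to 168 TPM in controls (median 12.8), with 4.03 TPM in Taar5+ replicate 5 only. Olfr860 (chr9:19845156-19849747, minus strand) ran from 0 to 159 TPM (median 7.83), with 5.65 TPM in Taar5+ replicate 5 only. Each was highest in a control of its own, replicate 7 for Olfr859, replicate 4 for Olfr847 and replicate 8 for Olfr860. The log2 fold changes were -2.74 ± 0.97, -2.82 ± 0.92 and -2.63 ± 0.91 (SE), with limma adjusted p-values of 0.400, 0.318 and 0.373.

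Olfr899 ranked second by control mean (39.7 ± 96.6 TPM, SD, n = 9) through a single library. It was at 295 TPM in control replicate 2, 42.2 TPM in replicate 1 and 14.4 TPM or less in the other controls, and its control median was 1.77 TPM. In Taar5+ cells it was above 0 in replicate 5 only, at 2.02 TPM. It was not tested.

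Olfr923 (chr9:38826545-38830300, plus strand) departed from the pattern. In controls it was at 187 TPM in replicate 4, 41.9 TPM in replicate 9, 14.7 TPM in replicate 1, 13.3 TPM in replicate 3 and 0 in the other 5. In Taar5+ replicates 1 to 7 it was at 5.70, 0, 0, 28.1, 12.8, 30.6 and 0 TPM. It reached the highest Taar5+ mean of the 105 receptors (11.0 ± 13.3 TPM, SD, n = 7) and was the only one above 0 in more than 3 Taar5+ libraries and the only one with a Taar5+ median above 0. The log2 fold change was 0.03 ± 1.21 (SE, limma adjusted p = 0.998), the only value of 0 or above among the receptors tested. Its sign turned with the processing, and the value ran from -2.14 with library weights to 0.68 without control replicate 4.

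**Figure D3:**
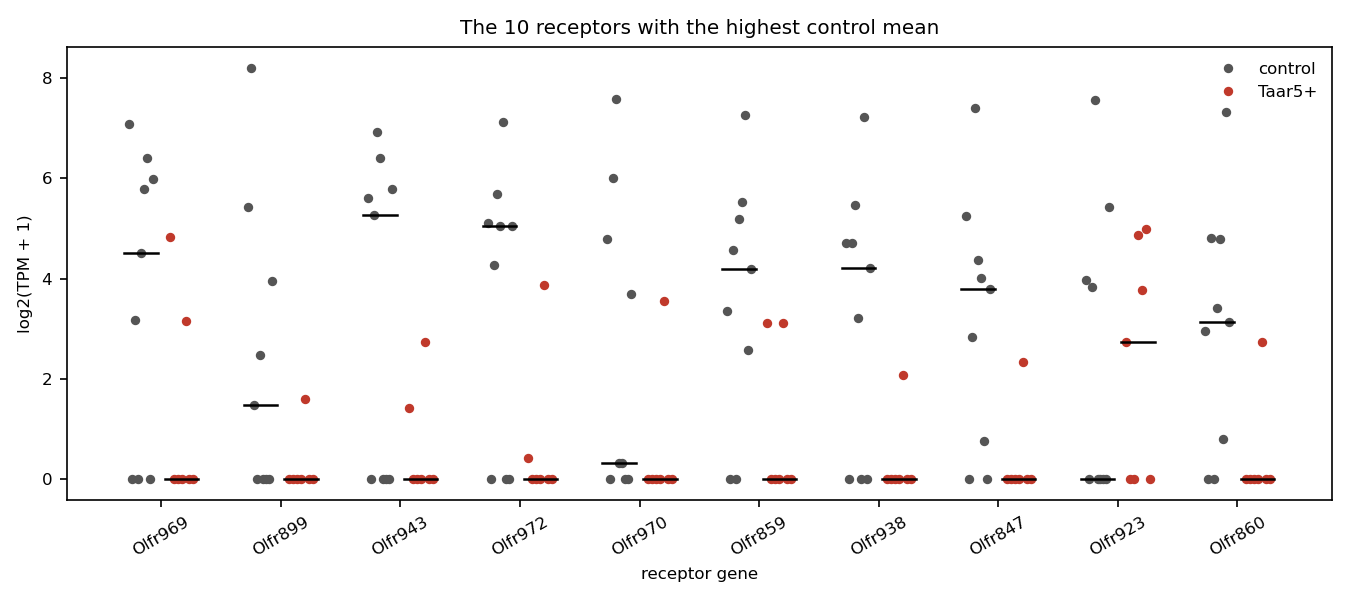
Points are libraries, grey for control (n = 9) and red for Taar5+ (n = 7), and the y axis is log2(TPM + 1). Black bars are group medians, for the 10 receptors with the highest control mean. Taar5+ medians are 0 for all of them except Olfr923, and every receptor has controls at 0.

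Of the other receptors with a high Taar5+ mean, each rested on few libraries. Olfr881 (chr9:37991825-37996408) was at 8.39 and 19.9 TPM in Taar5+ replicates 5 and 6, and its controls spanned 0 to 46.2 TPM (median 0). Olfr933 (chr9:38972313-38979861) was at 4.21 and 11.2 TPM in Taar5+ replicates 5 and 7, and its controls spanned 0 to 147 TPM (median 10.9). The log2 fold change of Olfr933 was -2.21 ± 0.996 (SE, limma adjusted p = 0.644), and Olfr881 was not tested.

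The comparison of Taar5+ with control cells asked which receptors changed with the sort. A gene entered the limma test on log2(TPM + 1) if it reached 1 TPM in 7 or more of the 16 libraries, and 27 of the 105 receptors did. With Benjamini-Hochberg adjustment over all 12502 genes, 0 of the 27 were called lower, against 0.024% of all genes, and 0 were called higher, against 0.144%. At an unadjusted limma p under 0.05, 21 of the 27 were lower, against 5.38% of all genes. Because single receptors were above 0 in few Taar5+ libraries, a receptor passed the filter mainly through its controls. It was thus bound to lean lower, so the count does not support a fall. For the same reason the median log2 fold change, -2.23 for the 27 receptors, stands beside -2.14 for the other OR genes tested and 0.02 for all genes as a description. In 0 of the 27 did every Taar5+ library lie below every control, against 0.04% of all genes. Every receptor was at 0 in some control, so this count could only be 0 and says nothing about separation.

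The smallest adjusted p, 0.217, was that of Olfr976 (chr9:39954139-39961133, minus strand). Its control values ran from 0 to 39.6 TPM (median 9.06), and it was at 1.09 TPM in Taar5+ replicate 5 and 0 in the other Taar5+ libraries. Control replicates 2 and 7 were at 0 and overlapped the Taar5+ group. The log2 fold change was -2.64 ± 0.73 (SE). Without control replicate 2, Olfr976 was the 1 receptor called lower (limma adjusted p = 0.0353), against 0.939% of all genes in that fit.

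Other receptors among the 10 with the smallest p showed the same form. Olfr916 (log2 fold change -2.40), Olfr948 (-2.51) and Olfr846 (-1.88) were above 0 in Taar5+ replicate 5 only, at 3.07, 4.83 and 2.71 TPM, with control medians of 9.92, 11.0 and 4.06 TPM. Olfr910 (-2.63) had a control median of 23.3 TPM and was at 10.1 and 4.27 TPM in Taar5+ replicates 1 and 5. The limma adjusted p-values of these 4 were 0.320, 0.345, 0.429 and 0.334. Each had control replicates at 0 that lay within the Taar5+ range.

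The number called differed between settings. In each fit a receptor passed the filter mainly through its controls, so these counts do not support a fall. Control replicates 2, 7 and 8 also had the lowest sums of these receptors among controls (394, 628 and 312 TPM). Without control replicates 2, 7 and 8, a choice made after seeing the data, 9 of 18 receptors tested were called lower (limma, adjusted over all genes), against 1.71% of all genes. They were Olfr847, Olfr910, Olfr912, Olfr933, Olfr943, Olfr961, Olfr972, Olfr974 and Olfr976. With library weights estimated from the data, 24 of 27 were called lower, against 9.18% of all genes. Quantile normalization gave 1 of 27 called lower, Olfr910 (adjusted p = 0.0473, limma), against 0.592% of all genes. Without control replicate 2 and Taar5+ replicate 5, 4 of 12 were called lower, Olfr857, Olfr859, Olfr910 and Olfr976, against 2.42% of all genes. In these fits and the fit without control replicate 2 0 receptors were called higher, against 0.249% of all genes without control replicate 2, 0.247% without replicates 2, 7 and 8, 1.45% with library weights, 0.28% after quantile normalization and 0.411% without control replicate 2 and Taar5+ replicate 5.

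The placed receptors fell into 2 clusters, split where neighbouring OR genes were more than 1 Mb apart (1000000 bases). The proximal cluster (chr9:18751507-20336094) held 30 of them, from Olfr828 to Olfr873, among 51 annotated OR genes and pseudogenes. The distal cluster (chr9:37708964-40190134) held 73, from Olfr874 to Olfr979, among 127. The mean over receptors of the control mean was 7.10 TPM in the proximal and 8.79 TPM in the distal cluster, and the Taar5+ means were 0.536 and 0.891 TPM. The proximal cluster held 12.9 to 74.9% of the receptors' TPM in controls, with a median of 23.6%. Its highest share came from control replicate 8, where Olfr860 led. The median log2 fold change was -2.18 over 9 tested receptors of the proximal and -2.34 over 18 of the distal cluster, and no difference between the clusters was tested.

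Levels were uneven along both clusters. In bins of 250 kb (250000 bases), the highest mean in the proximal cluster was 20.4 TPM at 1000 to 1250 kb from its first OR gene, where Olfr859 and Olfr860 lie, and the lowest of the bins with more than 1 receptor was 1.28 TPM at 250 to 500 kb. In the distal cluster the bins at 2000 to 2250 kb (15.9 TPM, led by Olfr969) and 1250 to 1500 kb (14.8 TPM, led by Olfr943) were the highest, and the bin at 500 to 750 kb was the lowest (1.94 TPM). The medians within the leading distal bins were 9.97 and 8.39 TPM, so single receptors raised their means.

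**Figure D4:**
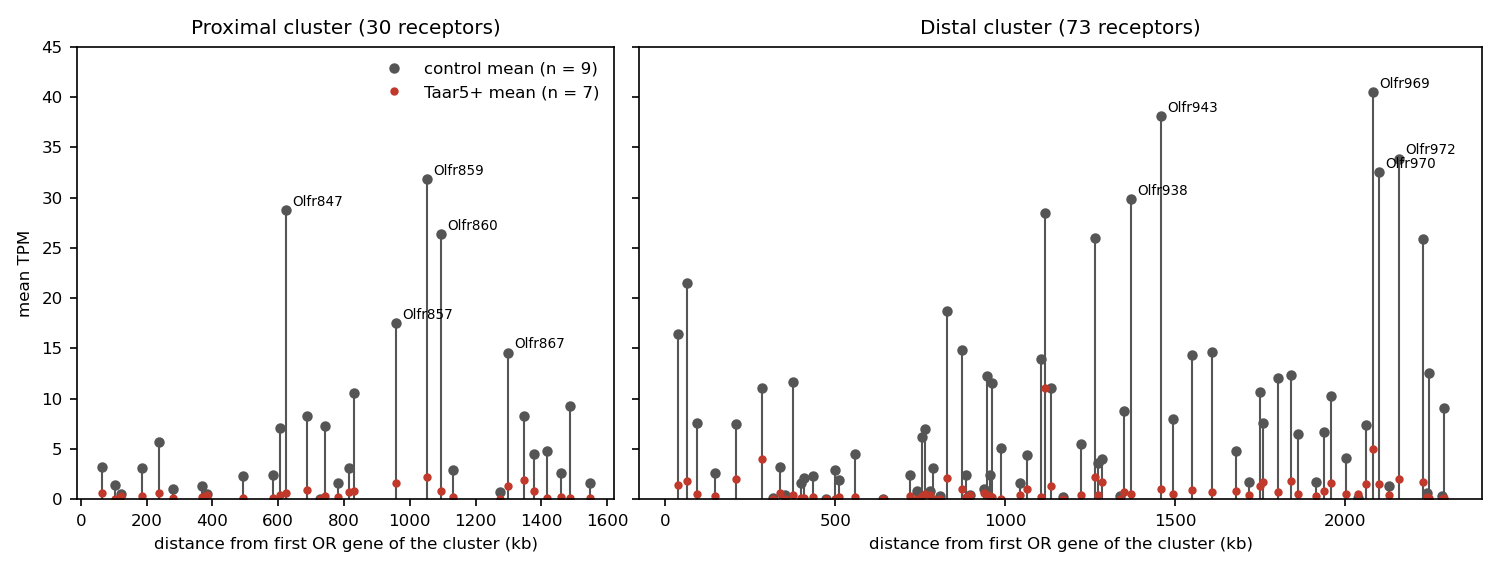
Stems mark the placed receptors by the distance of their start from the first OR gene of the cluster (kb), with the mean TPM of controls in grey (n = 9) and of Taar5+ libraries in red (n = 7). The 5 receptors with the highest control mean are named in each cluster. Control means reach 40.5 TPM at Olfr969, and the red points lie below the grey ones at every receptor above 0 in controls except Olfr967 (0.151 TPM in controls, 0.532 TPM in Taar5+ libraries). The highest red point is Olfr923 at 11.0 TPM.

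The near-identical pairs differed in how their levels ran together. Olfr952 and Olfr955 were both above 0 in 6 of 18 libraries, and Olfr955 was 4.14 to 6.56 times as high as Olfr952 in each of them. In 3 other libraries Olfr955 alone was above 0, at 0.216 to 1.83 TPM. Olfr952 and Olfr955 were at 5.58 and 23.7 TPM in control replicate 1, and at 1.87 and 8.52 TPM in Taar5+ replicate 6. This pair shared the most sequence of the set. Olfr910 and Olfr912 (chr9:38580178-38586876) were above 0 in the same 11 libraries, yet the ratio of Olfr912 to Olfr910 ranged from 0.0787 to 7.29. Olfr951 (chr9:39387410-39395633) and Olfr954 (chr9:39456701-39464625), 96.1% identical, were above 0 in the same 8 libraries, with a ratio of Olfr954 to Olfr951 of 0.148 to 5.60. Olfr870 (chr9:20168533-20174057) and Olfr871 (chr9:20212207-20213353), 97.5% identical, were both above 0 in 6 libraries and 1 of them alone in 3. Olfr924 (chr9:38844449-38851495) and Olfr926 (chr9:38877126-38878176), 96.1% identical, were both above 0 in 4 libraries, where Olfr926 was 0.0115 to 0.0625 times as high as Olfr924. In 4 other libraries Olfr924 alone was above 0.

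Sequence upstream of the receptors was searched for TAATTA, the core bound by homeodomain factors such as Lhx2, and CCCNNGGG, a core of the Ebf factors, both of which read the same on either strand. RefSeq windows of GRCm38.p6 covering 250 bases before an annotated start were matched to 88 of the receptors (89 windows). The annotated start of 70 of these windows lay within 50 bases of a coding start, so most windows do not cover a mapped promoter. TAATTA was in 22 of the 89 windows (24.7%), against 17.6% of windows of the other OR genes and 4.84% of all windows, and CCCNNGGG was in 0, against 2.99% and 11.8%. Among the 19 windows away from a coding start, TAATTA was in 5 (26.3%, against 17.99% of such windows of the other OR genes) and CCCNNGGG in 0 (against 11.5%). A match is a description of the letters in the window only. The window of Olfr860 is shown because it holds TAATTA, in capitals, and belongs to a receptor with a high control mean (GRCm38.p6, chr9:19849780-19849839, minus strand, upstream of the gene), and that of Olfr943 because it belongs to the receptor with the highest control median and holds no match (chr9:39166223-39166282, plus strand, upstream of the gene).
Olfr860: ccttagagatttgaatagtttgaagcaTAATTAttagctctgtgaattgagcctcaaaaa
Olfr943: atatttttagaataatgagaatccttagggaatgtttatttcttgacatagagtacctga

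None of the listed genes that act with receptors was called between the groups. The list held 13 genes for receptor choice, trafficking and signalling: the choice factors Lhx2, Ldb1, Ebf1, Ebf2, Ebf3, Ebf4 and Emx2, the demethylase Kdm1a, the feedback genes Atf5 and Adcy3, the trafficking chaperones Rtp1 and Rtp2, and Gnal. All 13 were tested with limma, 0 were called higher and 0 lower, 0 had an unadjusted p under 0.05, and their median log2 fold change was 0.05. Lhx2, a homeodomain factor of OR enhancers, was at 98.6 ± 49.2 TPM in controls (SD, n = 9) and 91.4 ± 30.3 TPM in Taar5+ cells (SD, n = 7). Rtp1, which carries receptors to the cell surface, was at 824 ± 242 and 837 ± 211 TPM. The groups overlapped for both, and the log2 fold changes were -0.02 and 0.05.

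Markers of other cell types differed in level between libraries. The 3 horizontal basal cell markers (Krt5, Krt14 and Trp63) had a median log2 fold change of -2.64 and summed to 0 to 123 TPM in controls and 0 to 181 TPM in Taar5+ cells. The 2 tested microvillar markers had a median of -2.02, and the whole list of 3, with the untested Trpm5, summed to 12.6 to 608 TPM in controls and 0.266 to 175 TPM in Taar5+ cells. The 3 tested blood and immune markers had a median of -1.24, and the 4 listed markers in the table, with the untested Cx3cr1, summed to 4.67 to 6196 TPM in controls and 5.71 to 1418 TPM in Taar5+ cells. The haemoglobin gene Hba-a1 made up most of the mean sum (1672 of 1693 TPM in controls). Its log2 fold change was 0.13, against -1.24 for Ptprc and -1.68 for Cd68. Of the basal, microvillar, blood and immune markers 0 were called by limma, while 3 basal, 1 microvillar and 1 blood or immune marker had an unadjusted p under 0.05. The 3 sustentacular markers had a median of -0.21, the 4 mature OSN markers 0.30 and the 2 immature OSN markers -0.37, with 0 called and 0 at an unadjusted p under 0.05. The part of these markers in the receptor levels was not tested.

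The Taar6 line gave a second sort with 1 library a group and no replicate check. The 105 receptors summed to 911 TPM in its control and 67.7 TPM in Taar6+ cells, 7.43% of the control. The number above 0 was 97 in the control and 45 in Taar6+ cells. Of the 91 receptors with at least 1 TPM in either library, 83 were lower by more than 2-fold on the log2(TPM + 1) scale, against 13.8% of all genes, and 0 were higher by more than 2-fold, against 4.89%. A receptor entered this count mainly through the control library and was bound to lean lower, so the count does not support a fall. For the same reason the median difference, -2.37 over the 91 receptors and -0.21 over all genes, is given as a description.

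The leading receptors of the Taar6 line overlapped those of the Taar5 line. Olfr969 was the highest in both libraries, at 61.6 TPM in the control and 4.29 TPM in Taar6+ cells, followed in the control by Olfr943 (34.8 and 1.198 TPM) and Olfr870 (28.3 and 1.71 TPM). In Taar6+ cells Olfr912 (26.5 TPM in the control, 3.97 TPM in Taar6+ cells) and Olfr958 (chr9:39547958-39554054, 14.5 and 3.70 TPM) came next. Olfr923 was at 13.0 TPM in the control and 0 in Taar6+ cells. The receptor shares of OR TPM were 7.18% and 4.47%.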

How the data were processed

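Smart-seq2 RNA-seq libraries of sorted cells were used, 9 control and 7 Taar5+ libraries of the Taar5 line and 1 library of each kind of the Taar6 line. The deposited values are TPM, which the authors made from reads mapped to mm10 (GRCm38). The submitters' processing notes name Trimmomatic 0.36, HISAT2 2.1.0, Cufflinks 2.2.1 and DESeq2. The annotation, strand setting and treatment of reads mapping to several genes are not given in the sources used here. TPM keep no depth, so no counting interval can be given, and Smart-seq2 adds no molecular identifiers.

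The 488 repeated rows were summed by symbol. Expression was modelled with limma 3.58.1 (R 4.3.3, lmFit, eBayes with trend) as log2(TPM + 1) for genes that reached 1 TPM in 7 or more of 16 libraries, with a pseudocount of 1, which understates the change of low genes, and a threshold of 0.05 on p-values adjusted by Benjamini-Hochberg over all 12502 genes. The step was tested on simulated normal values with larger changes than those of these receptors. That check does not show whether receptors with many values of 0 could be called. The members and gene lists were chosen with earlier results of these data known, so no p is given for the set. Levels were summed in Python 3.11.15 (pandas 2.3.3), and coding sequences of GENCODE M21 were aligned with biopython 1.88 in place of proteins.

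Named genes were the 10 receptors with the highest control mean, the 5 with the highest Taar5+ mean, the 10 with the smallest p, tested receptors with a log2 fold change of 0 or above, the 3 highest in each Taar6-line library, and the 5 closest pairs. Receptors called in other fits were named after their values were seen. Replicate numbers are shared between groups, and whether they pair libraries was checked. Alternatives were other pseudocounts, filters, scalings and left-out libraries. One receptor sequence is not reported here.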

Additional observations from a re-analysis of the deposited data

Results flagged for a closer look

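In the libraries of the Taar5 line, 63 groups of values (the library summaries and the levels of the named receptors, in control or Taar5+ libraries) were searched by Dixon's criterion for a library distant from the rest, and 38 held one. Chance gives about 1 in 20 groups, or 3.15 of the 63. Values of 0 in most libraries make such gaps common here.

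Taar5+ replicate 5 stood above the other Taar5+ libraries in the summed TPM of the 105 receptors (342), the number above 0 (88) and the effective number (52.2). It also did so for Olfr899 (2.02 TPM), Olfr943 (5.66), Olfr972 (13.6), Olfr970 (10.7), Olfr938 (3.23), Olfr847 (4.03), Olfr860 (5.65), Olfr976 (1.09), Olfr916 (3.07), Olfr948 (4.83), Olfr846 (2.71), Olfr870 (0.875), Olfr951 (5.18), Olfr871 (1.35) and Olfr954 (9.07). In this library 16 of 104 receptors exceeded their control mean, and the median receptor was at 35.6% of it.

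Other Taar5+ libraries stood apart for single receptors. Replicate 1 did so for Olfr969 (27.3 TPM) and Olfr910 (10.1 TPM), replicate 6 for Olfr881 (19.9 TPM), Olfr952 (1.87 TPM) and Olfr955 (8.52 TPM), and replicate 7 for Olfr933 (11.2 TPM).

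Among controls, replicate 4 stood apart for Olfr970 (191 TPM), Olfr847 (168 TPM), Olfr923 (187 TPM), Olfr933 (147 TPM) and Olfr958 (50.6 TPM). Replicate 7 did so for Olfr859 (152 TPM), Olfr938 (149 TPM) and Olfr916 (49.0 TPM), and replicate 6 for Olfr972 (138 TPM) and Olfr954 (56.9 TPM). Replicate 1 stood apart for Olfr948 (51.1 TPM) and Olfr870 (22.8 TPM), replicate 2 for Olfr899 (295 TPM) and replicate 8 for Olfr860 (159 TPM).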

How the results depend on the processing

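The number of receptors called lower by limma was 0 of 27, against 0.024% of all genes. At an unadjusted limma p under 0.05, 21 were lower, against 5.38% of all genes. The number called lower was 1 after quantile normalization (Olfr910, against 0.592% of all genes) and 24 with library weights (against 9.18%). With libraries left out in turn it was 1 without control replicate 2 (Olfr976, against 0.939%) and 0 otherwise. In those other fits 16 to 66 genes were called in all. It was 4 of 12 without control replicate 2 and Taar5+ replicate 5 (against 2.42%). Without control replicates 2, 7 and 8 it was 9 of 18 (against 1.71%). These last 2 settings were chosen after seeing the data. Receptors passed the filter mainly through their controls in each fit, so these counts do not support a fall. The cause of the differences between settings was not tested. The median log2 fold change was -3.67 with a pseudocount of 0.1 and -1.07 with no filter, where 104 receptors were tested. A filter of 12 libraries left 0 receptors to test. The difference in summed level kept its direction under every alternative run, from -4.07 to -5.60 on the log2 scale. For the named receptors, 306 values under alternatives kept direction and side of the threshold and 26 kept direction and passed the threshold. The other 14 were of Olfr923 and turned below 0, to -0.25 after quantile normalization, -2.14 with library weights, -0.40 with all 18 libraries and line as a covariate, -0.50 without control replicate 2 and Taar5+ replicate 5, and -1.13 without control replicates 2, 7 and 8. With 1 library left out at a time it ran from -0.41 to 0.68.

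Whether the replicate numbers pair the libraries was not settled, and the main fit did not pair them. Deviations of same-numbered libraries from their group means correlated at -0.00617 to 0.275. Of the 7 Taar5+ libraries, 3 correlated best with the control of their own number. In a fit with a replicate block, 0 of 9 receptors tested were called, against 13 of all 11781 genes tested. The median log2 fold change of the 9 receptors was -2.57. The table keeps no depth, so whether a receptor listed at 0 was absent or undetected cannot be told.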
